A study of Schizosaccharomyces pombe with 4 samples.

Results

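The genes described here are 3 ammonium transporter genes, amt1, amt2 and amt3, and 3 vacuolar protease genes, isp6, psp3 and cpy1, of the fission yeast Schizosaccharomyces pombe. They are 6 of the 5113 protein-coding genes of the 3 chromosomes. They were chosen by the covered length of intervals of serine 5 phosphorylated RNA polymerase II, which amt1, isp6 and cpy1 had in cells without abp1 and lacked in wild type, so those values are given as a description. The other genes, amt2, amt3 and psp3, belong to the same families. The study compared abp1Δ cells (genotype ABP1d in the labels), which lack the fission yeast homolog of the centromere protein CENP-B, with wild-type cells. Cells of both genotypes grew exponentially in YES, a rich medium, and were fixed with 1% formaldehyde for 15 min. Polymerase was precipitated with an antibody against its serine 5 phosphorylated form, which marks initiation and early elongation, and the DNA that came with it was sequenced. The labels name 1 ChIP and 1 input per genotype, and the 2 ChIP samples each have 1 list of intervals with a score. The labels do not give the mating type, the way the deletion was made or the number of cultures. There is no replicate, so no difference below was tested.

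Fission yeast takes up ammonium through Amt/Mep family proteins in the plasma membrane and builds it into glutamate and glutamine inside the cell. When good nitrogen sources run out, transporters of this family and vacuolar proteases are typically made in larger amounts, and the TOR kinase pathway and GATA-type transcription factors control much of that response. The vacuole then breaks down protein delivered by autophagy. Isp6 is a subtilisin-type serine protease of the vacuole whose gene is known for induction by nitrogen starvation, Psp3 is a related serine protease, and Cpy1 is carboxypeptidase Y, which trims proteins from their carboxyl end.

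The abp1Δ list held 2851 intervals over 249934 bp and the wild-type list 3242 over 227413 bp. A gene body, from annotated start to annotated end, held at least 1 covered base for 364 genes in abp1Δ and 367 in wild type. Every score was 200 or higher in both lists, read depth is unknown, and a gene with no interval may carry polymerase below that level. Both lists average over a culture, so more cells with polymerase on a gene and more polymerase per cell cannot be told apart. The deleted gene, SPBC1105.04c (cbp1 in the annotation used here), had no interval in either list, so it does not check the genotype labels.

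In abp1Δ 3 of the 6 genes were covered and in wild type none was, and no member was covered in wild type alone. Over the protein-coding genes 0.88% were covered in abp1Δ alone, 0.939% in wild type alone and 6.24% in both lists. Because the genes were picked for this contrast, nothing is read from their count beside those shares. None of the 6 genes had a covered base in the 1 kb before its start or the 1 kb past its end, in either list.

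**Figure D1:**
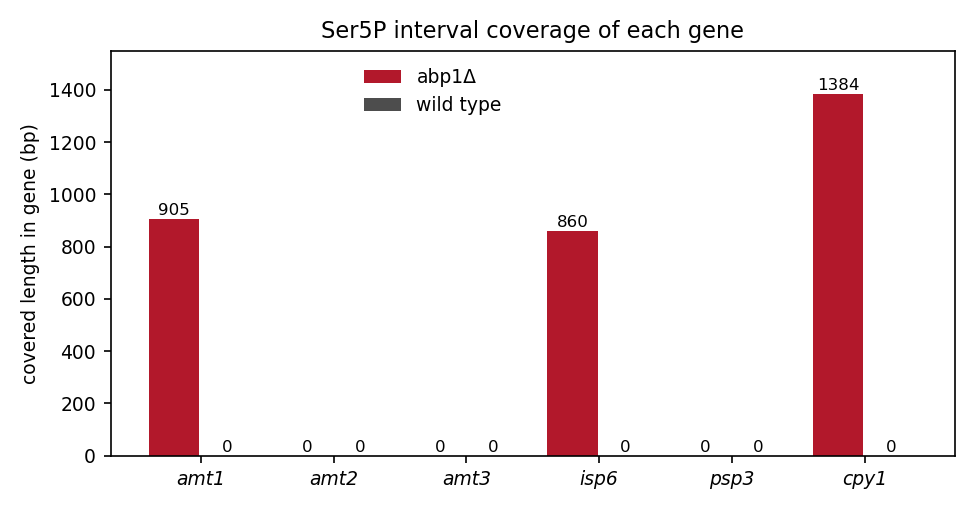
Bars give the covered length in base pairs within each gene body in the abp1Δ list (red, left) and the wild-type list (grey, right), with 1 list per genotype and no error. amt1, isp6 and cpy1 had 905, 860 and 1384 bp in abp1Δ and 0 in wild type, and amt2, amt3 and psp3 had 0 in both.

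The ammonium transporter gene amt1 (SPCPB1C11.01, chromosome III, 2068979 to 2071707, plus strand, 1 exon) had 905 covered bp in abp1Δ, 33.2% of its 2729 bp, against 0 in wild type. The 10 intervals lay close together, between 2069893 and 2070838, and filled 95.7% of that span. The widest ran unbroken for 558 bp, from 323 to 880 bp past the first base of the start codon, and had the gene's highest score, 317. That score was higher than those of 91.5% of the intervals in the abp1Δ list, where the median width was 4 bp. Among the 364 genes covered in abp1Δ, amt1 ranked 232 by highest score. The next interval toward the 3′ end had a score of 272 over 138 bp, and the 2 widest of those nearer the start codon had 257 over 77 bp and 232 over 79 bp. The highest score thus lay in the middle of the coding sequence. Coverage stopped before its end, with the last covered base at 1032 bp of a coding sequence of 1494 bp. The nearest wild-type interval was 9689 bp away, at the Hsp70 gene ssa2.

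Its relatives had no interval. amt2 (SPAC664.14, chromosome I, 1731069 to 1733268, plus strand) had 0 covered bp in both lists. Its nearest intervals lay before its start at ssc1, 3209 bp away in abp1Δ and 3532 bp away in wild type. amt3 (SPAC2E1P3.02c, chromosome I, 2924692 to 2926446, minus strand) also had 0 in each list, with the nearest intervals 14520 bp away in abp1Δ, at eft201, and 9082 bp away in wild type, at cbm1. The retrotransposon Tf2-3, of the family named in the title of the series, lies 758 bp before the start of amt3. It had no covered base in either list. Of the same family, Tf2-10 and Tf2-11 were covered in abp1Δ alone, with 1004 and 981 bp, as were 0.88% of all protein-coding genes. They were named after their values were seen and other copies are not described here, so nothing is read from them about the family. Where reads matching several places were put is not given, so the lack of intervals at Tf2-3 does not speak for the family.

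Of the vacuolar proteases, isp6 (SPAC4A8.04, chromosome I, 2544842 to 2546981, plus strand, 1 exon) had 860 covered bp in abp1Δ, 40.2% of the gene, against 0 in wild type. Scores were highest at the 5′ end of the coding sequence and lower along it. The unit of the score is not stated, so this is not read as an amount of polymerase. The first interval, 430 bp wide, had the highest score, 339. Intervals of 108, 130 and 101 bp followed with scores of 268, 256 and 251. Beyond them lay short pieces with scores of 200 to 216, the last of them 1096 bp past the first base of the start codon. isp6 stood alone in its part of the chromosome: within 100000 bp on each side, the gene left out, 3 bp were covered in abp1Δ and 53 bp in wild type, and the nearest wild-type interval was 35888 bp away at gly1. The related protease gene psp3 (SPAC1006.01, chromosome I, 5067518 to 5069371, plus strand) had 0 covered bp in both lists, and its nearest intervals, at tif1, were 16322 bp away in abp1Δ and 16323 bp away in wild type.

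The carboxypeptidase Y gene cpy1 (SPAC19G12.10c, chromosome I, 4061377 to 4064957, minus strand, 1 exon) had the longest coverage of the 6, 1384 bp in 60 intervals in abp1Δ, or 38.6% of the gene, against 0 in wild type. Its coverage was also the most broken. The intervals filled 50.3% of the span between the first and the last of them, and 22 of the 60 were 1 bp wide. Scores were uneven along the gene. The interval from 593 to 1024 bp past the first base of the start codon had 1828, which placed it ninth in the whole abp1Δ list, and the interval from 1094 to 1229 bp had 565. The others reached at most 288. The nearest wild-type interval was 8192 bp away, at the histone gene hta2.

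**Figure D2:**
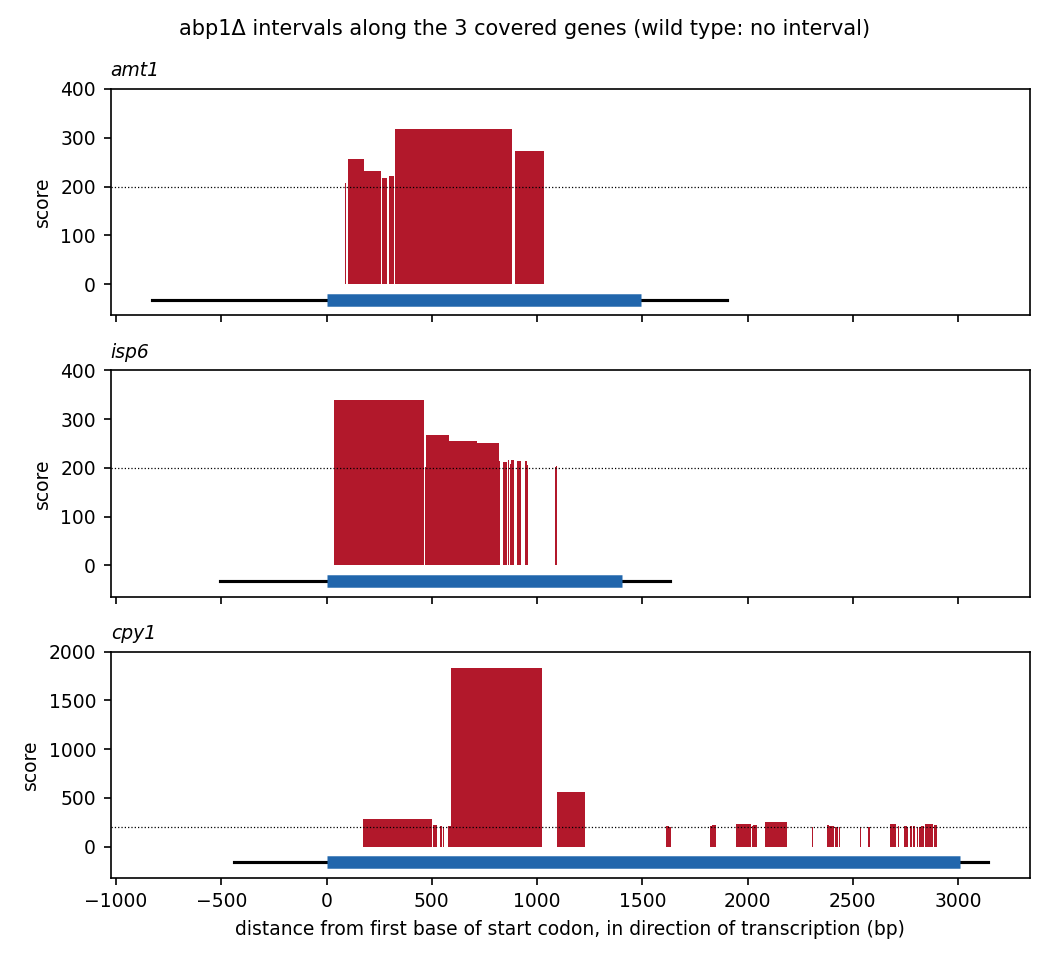
Each panel plots the score of every abp1Δ interval (red, drawn at its full width) against its distance in bp from the first base of the start codon, for amt1, isp6 and cpy1, above a gene model with the coding sequence in blue and the untranslated ends as a black line. The dotted line is the lowest deposited score, 200. Coverage starts 87, 35 and 175 bp past the start codon, and the score axis of cpy1 is longer than the others because of its interval at 1828.

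The covered bases of the 3 genes lay wholly in coding sequence. The 5′ untranslated regions, annotated at 827 bp in amt1, 508 bp in isp6 and 439 bp in cpy1, had 0 covered bases, as had the 3′ untranslated regions. The first covered base was 87 bp past the first base of the start codon in amt1, 35 bp in isp6 and 175 bp in cpy1. The starts of the 3 coding sequences are printed because the edge of the coverage falls in them, with bases covered in the abp1Δ list in capitals, 5′ to 3′ on the coding strand (ASM294v3).
amt1, chrIII:2069806-2069925, plus strand: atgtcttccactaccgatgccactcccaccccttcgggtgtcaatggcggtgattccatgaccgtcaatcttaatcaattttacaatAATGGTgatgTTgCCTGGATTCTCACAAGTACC
isp6, chrI:2545350-2545469, plus strand: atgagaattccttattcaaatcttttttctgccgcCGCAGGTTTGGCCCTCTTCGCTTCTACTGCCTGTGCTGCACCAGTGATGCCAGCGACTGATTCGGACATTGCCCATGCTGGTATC
cpy1, chrI:4064309-4064518, minus strand: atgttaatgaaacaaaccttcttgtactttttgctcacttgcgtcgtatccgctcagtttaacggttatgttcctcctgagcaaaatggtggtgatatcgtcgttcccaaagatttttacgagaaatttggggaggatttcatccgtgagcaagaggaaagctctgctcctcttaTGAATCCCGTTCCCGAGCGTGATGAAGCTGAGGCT
The coverage of amt1 began in pieces of a few bases, and that of isp6 and cpy1 with an unbroken interval. This place is not particular to the 3 genes. Of the 364 genes covered in abp1Δ, 83.5% had no covered base in the 5′ untranslated region. Of these 364, 143 have such a region of at least 100 bp, and the others can hold little such coverage. Among the 49 with a region of at least 400 bp, as in amt1, isp6 and cpy1, 28 had none. In wild type these values were 83.1% of 367 genes, and 23 of 46. The first covered base was 0 to 200 bp past the first base of the start codon in 15 of those 49 genes in abp1Δ and in 12 of those 46 in wild type.

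The 2 highest intervals of cpy1 lay on tandem repeats in its coding sequence. A search for periods of 12 to 60 bp with at least 85% identity between neighbouring copies found none in amt1, amt2, amt3, isp6 and psp3. In cpy1 it found a 39-bp repeat over 450 bp (chromosome I, 4063479 to 4063928) and a 27-bp repeat over 238 bp (4063232 to 4063469). The interval with a score of 1828 spans 4063494 to 4063925 and that with 565 spans 4063289 to 4063424, so each lay wholly inside one repeat. Another interval, 1 bp wide with a score of 203, also lay in the 39-bp repeat. The 39-bp repeat holds 11 full copies, 6 of them equal to the consensus, and the 27-bp repeat holds 8 full copies, 2 of them equal to it. Both periods are whole numbers of codons, 13 and 9. Copies are printed on the coding strand, with capitals for bases that differ from the consensus of the repeat, to show how alike they are.
39-bp consensus: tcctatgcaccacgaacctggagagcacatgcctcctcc
39-bp copy 1, chrI:4063890-4063928: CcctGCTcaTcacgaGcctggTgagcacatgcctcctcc
39-bp copy 2, chrI:4063851-4063889: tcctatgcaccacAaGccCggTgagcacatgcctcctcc
39-bp copy 7, chrI:4063656-4063694: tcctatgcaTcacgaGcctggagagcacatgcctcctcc
27-bp consensus: taaggataaggagcaccataagggacc
27-bp copy 1, chrI:4063443-4063469: tGaAgGtCCTgagcaTcatCGTggacc
27-bp copy 3, chrI:4063389-4063415: Caaggataaggagcaccataagggacc
27-bp copy 7, chrI:4063281-4063307: taaggaCaaggagcaccaCaagggacc
The first copy of each repeat differs most from its consensus, at 7 bases in the 39-bp and 10 bases in the 27-bp repeat. Of the 50-base words of cpy1, 333 of 3532 (9.43%) occur more than once in the genome on either strand, against 0 in each of the other 5 genes. How reads with several matches were placed is not given in the sources used here, and the part of the repeats in the scores was not tested.

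Outside the repeats cpy1 still had 57 intervals with 815 covered bp in abp1Δ, against none in wild type, with scores of 200 to 288. The highest of them lay between 389 and 500 bp past the first base of the start codon, and a 213-bp interval with a score of 284 lay before it. By its overall highest score, 1828, cpy1 ranked twelfth among the 364 genes covered in abp1Δ. At 288, the highest score outside the repeats, 257 genes including cpy1 had a score as high or higher, which is below the places of amt1 and isp6. The covered length outside the repeats was close to the 905 bp of amt1 and the 860 bp of isp6.

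**Figure D3:**
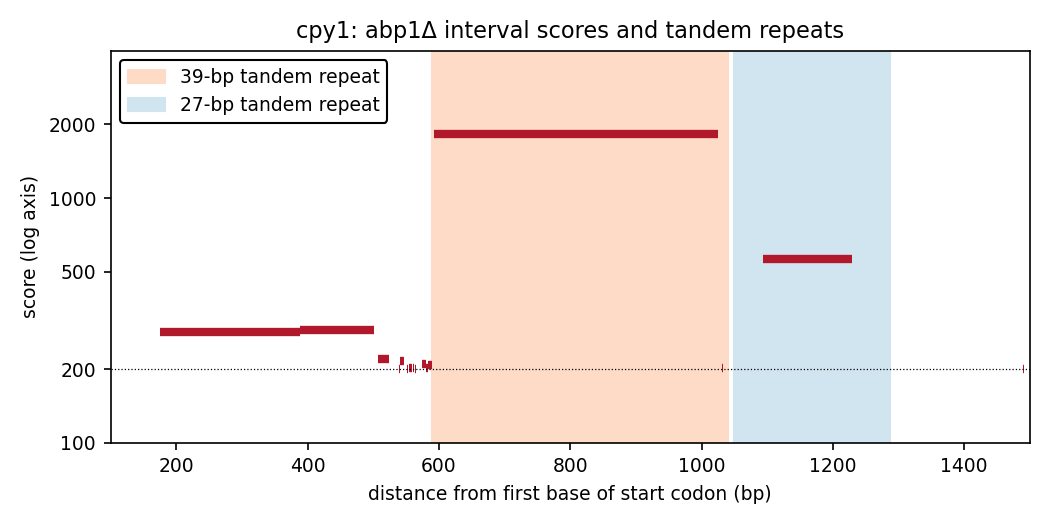
The score of each abp1Δ interval in the 5′ part of cpy1 (red line at its full width, log axis) is drawn against its distance in bp from the first base of the start codon, with the 39-bp repeat shaded orange and the 27-bp repeat shaded blue. The intervals with scores of 1828 and 565 lie inside the repeats, and the others stay at or below 288. The dotted line is the lowest deposited score, 200.

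Repeats of this kind were rare among genes, and cpy1 was one of several with intervals on them. Of the 5113 protein-coding genes 71 (1.39%) held one. Among covered genes 14 of 364 in abp1Δ and 9 of 367 in wild type did. The highest score lay on the repeat in 12 genes in abp1Δ, such as the cell wall gene pfl2 with 2995 and the eisosome gene fhn1 with 1117, and in 6 genes in wild type, where pfl2 had 2250 and fhn1 834. Wild-type intervals were thus present on repeats of other genes. The part of the repeats in the lack of wild-type intervals at cpy1 was not tested. The score of one list was not set against that of the other.

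The 3 covered genes are placed within the abp1Δ list as a description, since their coverage there and its absence in wild type chose them. By highest score isp6 ranked 203 and amt1 232 among the 364 covered genes, and by covered length cpy1 ranked 60, amt1 91 and isp6 96. Among the 45 genes covered in abp1Δ alone, cpy1, amt1 and isp6 ranked 2, 6 and 7 by covered length. The places of cpy1 rest on its repeats: with bases inside tandem repeats left out of every gene, a choice made after seeing the data, its 815 bp ranked 100 among 361 covered genes and 7 among 43 covered in abp1Δ alone, after amt1 at 90 and 5 and isp6 at 94 and 6. The widest interval of each gene was wide among the single intervals of these lists, where the median width was 4 bp. Of the 2851 abp1Δ intervals, 161 had at least the 430 bp of the widest one of isp6. The widest intervals of the other covered genes were not compared gene by gene. In cpy1 45 of the 60 intervals were at most 10 bp wide, in isp6 12 of 19 and in amt1 4 of 10.

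**Figure D4:**
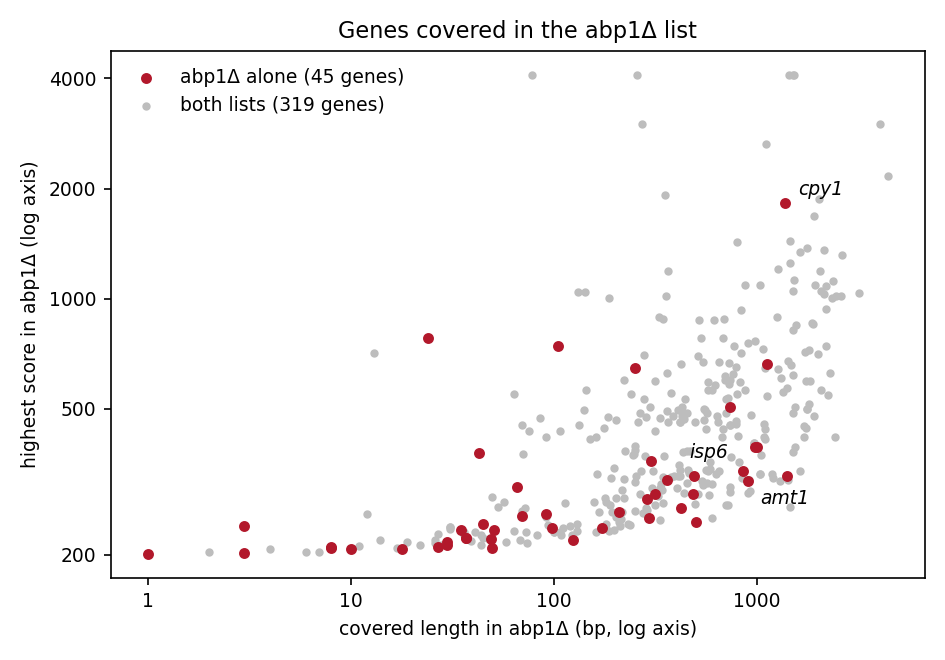
Each point is a gene covered in the abp1Δ list, placed by its covered length in bp and its highest score (both log axes), in red if it had no wild-type interval (45 genes) and in grey if it had one (319 genes). amt1, isp6 and cpy1 are named: they lie at the long end of the red points, with cpy1 highest at 1828.

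Surroundings differed between the genes. Chromosome III, which carries amt1, had 52175 covered bp in abp1Δ and 39335 bp in wild type, against 121864 and 115273 bp on chromosome I, which carries the other 5 genes. Within 100000 bp on each side of amt1, the gene left out, 5705 bp were covered in abp1Δ and 4678 bp in wild type. Around cpy1 the difference ran the other way, with 13049 bp in abp1Δ and 14294 bp in wild type. The part of the chromosome III difference in the amt1 result was not tested. The protein-coding neighbours within 1 kb of the 3 covered genes, SPCPB1C11.02 past amt1, the myosin gene myp2 past isp6 and SPAC19G12.09 past cpy1, had 0 covered bp in both lists. Long non-coding RNA genes overlap every member but cpy1 on the opposite strand. Those over amt2, amt3 and psp3 had 0 covered bp in both lists. SPNCRNA.7618 contains the whole covered stretch of amt1, with 905 bp in abp1Δ and 0 in wild type. SPNCRNA.3145 and SPNCRNA.3146 lie inside isp6 and hold 111 and 239 of its covered bp in abp1Δ, with 0 in wild type. ChIP intervals carry no strand, so transcription of these RNAs and of the genes cannot be told apart. No annotated non-coding RNA gene overlaps cpy1.

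GATA-type factors such as Gaf1 act on nitrogen-regulated genes in fission yeast, so the letters GATAAG were searched on both strands in the 250 bases before each annotated gene start. They occurred in amt1, amt3 and psp3 and not in amt2, isp6 or cpy1, and 10.2% of 5112 protein-coding promoters of that length held them. The covered genes therefore do not share the word in this window. The window of amt3 ends at its start codon, since no 5′ untranslated region is annotated there. Those of the other genes end further upstream of theirs. With 1000 bases the word occurred in amt1, amt3, isp6 and psp3, and in 34.4% of promoters. The shorter word GATAA, which is part of GATAAG, occurred in 54.2% of the 250-base promoters. The promoters of amt1 and isp6 are printed as a gene with the words and one without, on the coding strand and with GATAA on either strand in capitals. The first capitals in amt1 belong to its GATAAG, read on the opposite strand.
amt1, chrIII:2068729-2068978, plus strand: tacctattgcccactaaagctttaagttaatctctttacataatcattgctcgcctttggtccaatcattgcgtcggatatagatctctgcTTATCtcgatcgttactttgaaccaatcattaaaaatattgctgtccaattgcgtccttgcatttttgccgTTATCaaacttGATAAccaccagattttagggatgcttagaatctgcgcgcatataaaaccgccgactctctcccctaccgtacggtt
isp6, chrI:2544592-2544841, plus strand: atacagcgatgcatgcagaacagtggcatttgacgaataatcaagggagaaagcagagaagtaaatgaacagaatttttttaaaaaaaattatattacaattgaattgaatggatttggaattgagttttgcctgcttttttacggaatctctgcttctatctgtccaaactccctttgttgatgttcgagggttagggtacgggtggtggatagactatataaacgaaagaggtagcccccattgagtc
No interval of either list lay in these promoters. A match of letters is not a bound site, and its absence says only that the letters are not in the window.

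Other genes of nitrogen use and of the vacuole were counted by role. Of 5 ammonium assimilation genes 3 were covered in abp1Δ and 2 in wild type. The glutamine synthetase gene gln1 had 849 covered bp in abp1Δ, against 91 bp in wild type. The asparagine synthetase gene asn1 had 924 bp in abp1Δ and 249 bp in wild type. The glutamate synthase gene glt1 had 124 bp in abp1Δ and 0 in wild type, and the glutamate dehydrogenase genes gdh1 and gdh2 had none in either list. All 3 covered genes of this list thus had more covered length in abp1Δ. The list was drawn up with earlier results of these data known, so nothing is read from that count. Of the 412 genes covered in either list, 224 (54.4%) had more covered length in abp1Δ and 179 (43.4%) had less, with a median difference of 10 bp. Over the 5113 protein-coding genes these are 4.38% and 3.5%.

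Among 25 genes of the TOR pathway and nitrogen regulation, isp7 and cpc2 were covered in both lists. isp7 encodes a dioxygenase-family protein tied to TOR signalling and amino acid uptake, and like isp6 it was named for induction during sexual differentiation. It had 1915 covered bp in abp1Δ, against 4 bp in wild type, the second largest gain among the 412 genes, while cpy1, amt1 and isp6 came at places 5, 14 and 18. Without repeat bases cpy1 came at place 18 of 410 genes, after amt1 at 13 and isp6 at 17. gln1 and asn1 held places 21 and 24. The RACK1 homolog gene cpc2 had 1320 bp in abp1Δ and 1291 bp in wild type. These places depend on the lowest score of the lists, and length gained is not an amount of polymerase.

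The remaining lists held few covered genes. Of 8 genes for uptake of amino acids and peptides, the dipeptide transporter gene ptr2 was covered, with 2188 bp in abp1Δ and 2045 bp in wild type. The aminopeptidase gene ape2, one of 12 other peptidase genes, had 454 bp in abp1Δ and 390 bp in wild type. None of 5 vacuolar amino acid transporter genes, 4 urease genes, 28 autophagy genes, 20 vacuolar sorting genes or 15 genes of the vacuolar proton pump had a covered base in either list. Over these lists together 7 of 122 genes were covered in abp1Δ, or 5.74%, and 6 in wild type, or 4.92%, beside 7.12% and 7.18% of all protein-coding genes. Of the 7 genes, 1 was covered in abp1Δ alone and none in wild type alone.

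**Figure D5:**
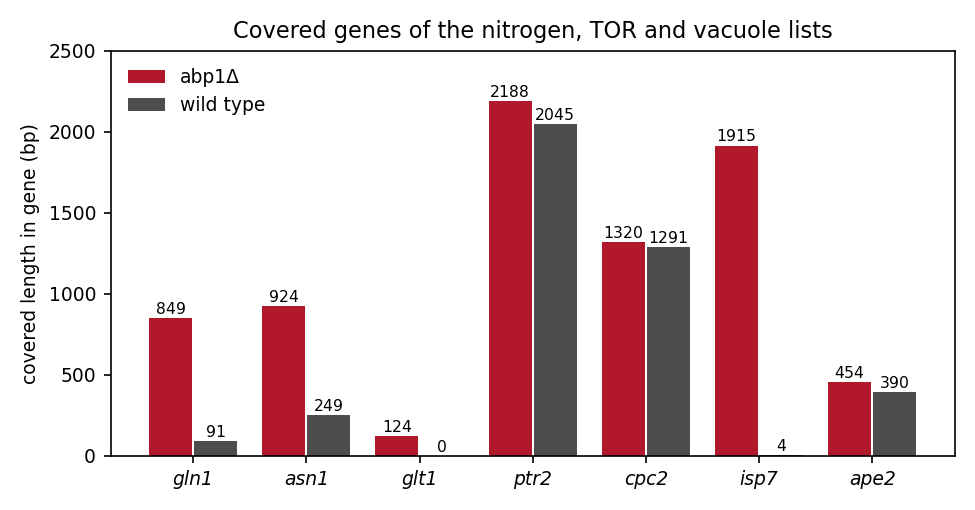
Bars give the covered length in bp of the 7 covered genes from the nitrogen, TOR and vacuole lists, in the abp1Δ list (red, left) and the wild-type list (grey, right), without replicates. isp7, gln1 and asn1 stand apart between the lists, with 1915, 849 and 924 bp in abp1Δ and 4, 91 and 249 bp in wild type, while ptr2, cpc2 and ape2 are nearly level.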

How the data were processed

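Chromatin immunoprecipitation with sequencing was done in 2 genotypes, with chromatin sheared to 250 to 400 bp, per the labels' protocols. Per the submitters' processing notes, Bowtie 0.12.5 aligned the reads. Not given in the sources used here are the peak caller, the build, how depth was scaled, what the inputs served for and where reads with several matches were put. The deposited lists have 4 columns without a header: chromosome, start, end and a score whose unit is not stated. It was used to describe and rank intervals within a list.

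Coordinates are 1-based and were read on RefSeq's annotated ASM294v3 assembly. Protein-coding genes held 90.4% of abp1Δ and 89.6% of wild-type covered bases, and at most 78.9% and 78.3% once the lists were shifted by 1000 to 10000 bp. Sequences are from the same RefSeq assembly. A gene was covered where 1 or more bases between its annotated start and end lay in an interval. Repeats were searched and covered bases counted with Python 3.11.15 and numpy 2.4.6, checked on simulated data. The 6 genes and the gene lists were chosen with earlier results of these data known. Of 130 symbols in the lists 6 matched no gene and others named the same gene. Named are the 6 genes, their neighbours, list members covered in 1 list alone and up to 4 covered in both per list; gdh1, gdh2, pfl2, fhn1, med15, pan1, tif471, SPCC1235.01 and the genes at nearest intervals fall outside that rule and were named after their values were seen. Alternatives were other score limits, widths, gene spans and limits of coverage. With 1 list per genotype no p-value, interval or floor was computed. A gene's own depth is unknown.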

Additional observations from a re-analysis of the deposited data

How the results depend on the processing

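The count of 3 genes covered in abp1Δ alone and 0 in wild type alone was the same under the 9 alternatives tried: the upper 50% of each list by score, an abp1Δ list limited to scores of at least 244 so that it covered about the wild-type length, equal numbers of intervals, no 1-bp intervals, coding sequence in place of gene body, 1 kb added on each side, at least 50 covered bp, at least 10% of the gene covered, and, chosen after seeing the data, repeat bases left out. The 0 in wild type could not change under any of them. Each left intervals or bases out, raised a limit or added flanks that held no interval. The unchanged count therefore bears only on whether the coverage in abp1Δ remained. With scores of at least 244 the covered length in abp1Δ was 773 bp for amt1, 769 bp for isp6 and 995 bp for cpy1. For cpy1 it was 1321 bp in the upper 50% and 815 bp without repeat bases. Merging intervals up to 50, 100 and 200 bp apart gave 10, 5 and 2 regions in cpy1. No paired analysis was possible because each genotype has 1 list, and no replicate could be left out. Both lists stop at a score of 200, and unequal depth or scaling between them was not tested.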

Other observations

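Among genes with a tandem repeat by the search used for cpy1, 5 were covered in abp1Δ alone, 0 in wild type alone and 9 in both lists, which is 11.1% of the 45 genes, 0 of the 48 genes and 2.82% of the 319 genes. This split was looked at after the values of cpy1 were seen and was not tested. Besides cpy1, the 5 genes were med15, a subunit of the Mediator complex, with 43 covered bp in abp1Δ, the actin patch gene pan1 with 302 bp, the translation factor gene tif471 with 66 bp and SPCC1235.01 with 316 bp, each with 0 in wild type. The highest score lay on the repeat in med15, tif471 and SPCC1235.01, at 378, 306 and 293, and off it in pan1, at 361. The intervals of isp7, which gained the most covered length in abp1Δ of the genes listed by role, reached into both untranslated ends, with 447 bp in the 5′ and 274 bp in the 3′ untranslated region, unlike those of amt1, isp6 and cpy1.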
